A study of Mus musculus with 3 samples.

Results

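The 10 genes described here belong to the Bcl2 family, which sets the threshold for death through mitochondria: Bcl2, Mcl1 and Bcl2l1, which promote survival, Bax and Bak1, which form the pore, and the BH3-only genes Bcl2l11, Bbc3, Pmaip1, Bid and Bad. They were chosen by name from the 22457 genes in the count tables, and all 10 were found there. Their RNA was measured by sequencing of polyadenylated RNA in regulatory T cells (Treg cells, CD4 T cells that hold other immune cells in check) taken as primary cells from male adult mouse tissue at an age of 4 months. The 3 libraries are labelled as technical replicates 1, 2 and 3 of 1 biological replicate, with no treatment or genotype named. There is thus 1 group, no contrast between conditions, and every spread below is that between libraries of 1 biological sample. The labels name neither strain, organ nor sort, and do not say whether animals were pooled.

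In healthy cells the survival proteins hold Bax and Bak1 in check at the outer mitochondrial membrane. BH3-only proteins carry death signals: they bind the survival proteins, and some of them also activate Bax and Bak1 directly. Once these form pores, cytochrome c leaves the mitochondria and the caspases are activated. In T cells, cytokines such as IL-2 and IL-7 keep survival genes on, and Treg cells are known to need Mcl1 and to be limited in number by the BH3-only protein Bim, the product of Bcl2l11.

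What makes these proteins a family is a short helix, the BH3 region, built around a leucine and an aspartate. The stretch of 36 bases that codes for it is shown for the 3 survival genes, both effectors and 2 BH3-only genes, because it shows both the shared core and how little of the sequence is common to the members. The sequences run 5′ to 3′ on the coding strand, were read from GENCODE M21 transcripts of GRCm38 (the assembly also called mm10), and have the leucine and aspartate codons in capitals.
Bcl2: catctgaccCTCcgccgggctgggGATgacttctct
Bcl2l1: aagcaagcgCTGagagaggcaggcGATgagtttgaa
Mcl1: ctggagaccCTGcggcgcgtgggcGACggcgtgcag
Bax: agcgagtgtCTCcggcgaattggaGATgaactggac
Bak1: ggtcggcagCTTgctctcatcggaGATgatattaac
Bcl2l11: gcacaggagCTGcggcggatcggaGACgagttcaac
Bbc3: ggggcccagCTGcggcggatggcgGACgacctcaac

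Each of these stretches lies within 1 coding exon. Their positions are chr1:106712575-106712610 (minus strand) for Bcl2, chr2:152829697-152829732 (minus) for Bcl2l1, chr3:95659427-95659462 (plus) for Mcl1, chr7:45465997-45466032 (minus) for Bax, chr17:27022531-27022566 (minus) for Bak1, chr2:128147141-128147176 (plus) for Bcl2l11 and chr7:16313764-16313799 (plus) for Bbc3. Pmaip1 was left out of this search. In each of the other 9 members the stretch was found by translating the longest consensus coding sequence and searching for a leucine, 3 further residues, a glycine, alanine or serine, and an aspartate, and each protein held it once. Over the 36 pairs of these 9 stretches, between 13 and 25 of the 36 bases were identical, with the closest pair being Bbc3 and Bcl2l11. No pair of the 10 members shared any run of 31 coding bases, so reads within the coding sequence of one member would not match that of another at that length. Untranslated exons of the members were not compared.

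Of the 10 members, 9 reached 1 CPM (counts after scaling each library to a sum of 1000000) in each of the 3 libraries, against 47.3% of all 22457 genes. The exception was Bbc3. The median level of the 10 members was 30.5 CPM, beside 51.2 CPM for the 10043 genes that reached a summed count of 30 and 1.08 CPM over all genes. Per kilobase of coding sequence the order was the reverse, with a median of 54.9 CPM for the members and 34.1 for those 10043 genes. The plot of levels by library shows that Bax stood highest and Bbc3 lowest in all 3 libraries.

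**Figure D1:**
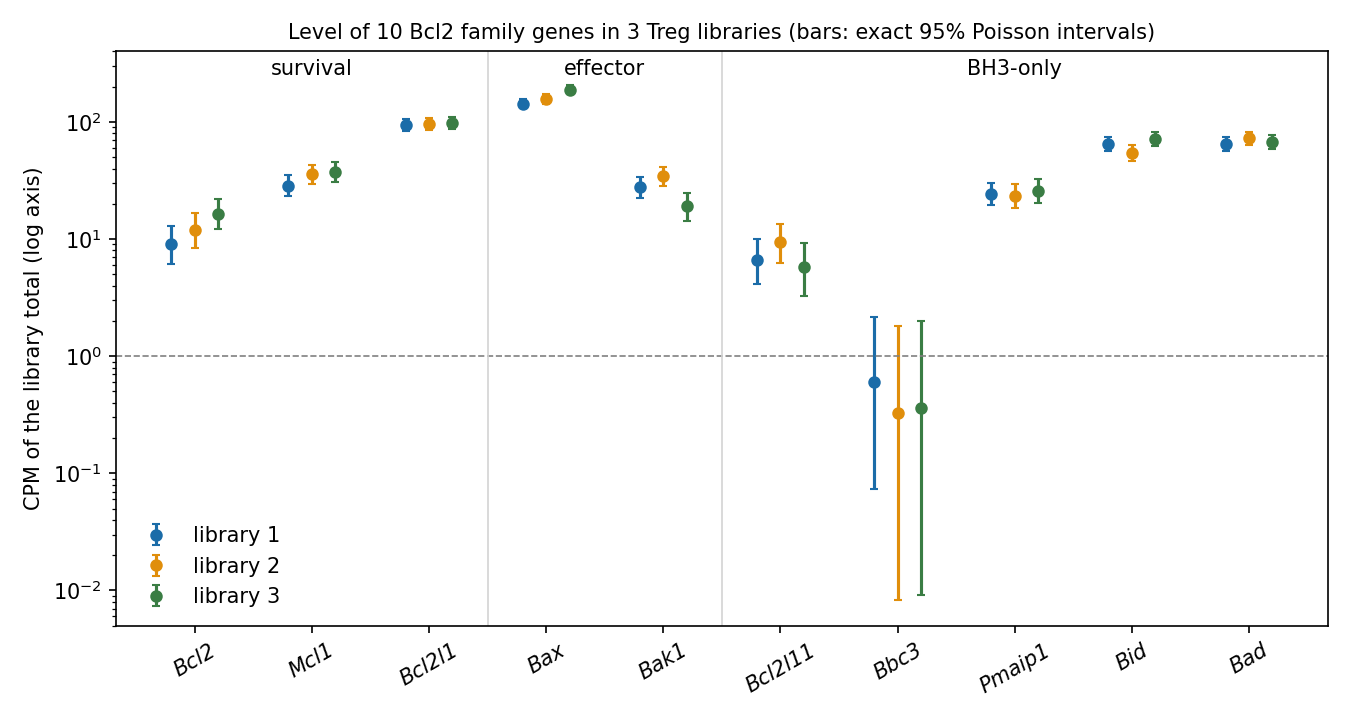
CPM on a log axis for each member in libraries 1, 2 and 3 (points), with exact 95% Poisson intervals as bars and the detection level of 1 CPM as a dashed line. Bax lies between 144 and 189 CPM, and Bbc3, with 1 or 2 counts a library, stays below 1.

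Among the survival genes, Bcl2l1, which encodes Bcl-xL, held the most RNA. Bcl2l1 (ENSMUSG00000007659, chromosome 2, 152780668 to 152831728, minus strand) had 312, 298 and 272 counts in libraries 1, 2 and 3, which is 94.1, 96.8 and 97.8 CPM and a mean of 96.2 ± 1.91 (SD, n = 3). Its 3 values lay within 1.04-fold of each other. Mcl1 (ENSMUSG00000038612, chromosome 3, 95658788 to 95663176, plus strand), which encodes a short-lived survival protein, had 28.6, 35.7 and 37.4 CPM from 95, 110 and 104 counts. Bcl2 (ENSMUSG00000057329, chromosome 1, 106538178 to 106714274, minus strand), the founding member of the family, had 9.05, 12.0 and 16.5 CPM from 30, 37 and 46 counts, a mean of 12.5 ± 3.77 (SD, n = 3). Library 1 was lowest and library 3 highest for both Mcl1 and Bcl2, and the Poisson intervals of libraries 1 and 3 overlapped for both genes, at 6.10 to 12.9 against 12.1 to 22.1 CPM for Bcl2.

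Levels of different genes can be compared only per length. Per kilobase of coding sequence, taken as the union of all annotated coding exons, Bcl2l1 had 126 ± 2.502 CPM, Mcl1 34.2 ± 4.67 and Bcl2 17.2 ± 5.17 (SD, n = 3). On summed counts Bcl2l1 stood 3.72-fold above Mcl1 (exact 95% binomial interval 3.26 to 4.25, counting error only). It stood 7.47-fold above Bcl2 (6.13 to 9.17), and Mcl1 stood 2.01-fold above Bcl2 (1.61 to 2.51). The order Bcl2l1, Mcl1, Bcl2 held in each of the 3 libraries. It also held with exon length in place of coding length. There Bcl2l1 stood 2.13-fold above Mcl1 (1.87 to 2.43) and 15.6-fold above Bcl2 (12.8 to 19.1), and the step from Mcl1 to Bcl2 grew to 7.33-fold (5.89 to 9.17) because the annotated exons of Bcl2 add up to 9157 bases, of which 729 code for protein. Whether counts from untranslated exons entered the tables is not given in the sources used here, so both scales are shown.

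Of the effector genes, Bax had far more RNA than Bak1 in every library. Bax (ENSMUSG00000003873, chromosome 7, 45461697 to 45466898, minus strand), whose protein moves from the cytosol to mitochondria, had 476, 485 and 526 counts, or 144, 158 and 189 CPM. Its mean of 163 ± 23.3 CPM (SD, n = 3) placed it at percentile 88.1 of the 15171 genes with any count. Bak1 (ENSMUSG00000057789, chromosome 17, 27019810 to 27029009, minus strand), whose protein sits in the mitochondrial membrane, had 92, 106 and 53 counts, or 27.7, 34.4 and 19.0 CPM. All 3 Bax values were above all 3 Bak1 values.

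Per coding kilobase Bax stood at 266 ± 37.98 CPM and Bak1 at 36.5 ± 10.4 (SD, n = 3). The ratio of Bax to Bak1 was 6.24-fold in library 1, 5.52-fold in library 2 and 12.0-fold in library 3, and 7.15-fold on summed counts (6.25 to 8.21). Library 3 stood apart here because it had both the highest Bax and the lowest Bak1 count. Per exon kilobase the summed ratio was 9.05-fold (7.91 to 10.4). Of the coding 31-mers of Bax, 24.5% also occur in other genes, most often in Gm45808. That gene is annotated across 192 of the exonic bases of Bax on the same strand and was not analysed here. Bak1 shared 10.98% of its own with other genes, most often with Ggnbp1 on the opposite strand. The measured gene of that name had 0, 3 and 2 counts.

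Of the 5 BH3-only genes, 3 were at moderate level, while Bcl2l11 and Bbc3 were the lowest of the 10 members by CPM. Per coding kilobase Bcl2l11 stood at percentile 48.0 and Bbc3 at 24.1 of the 14916 genes with any count and a coding length. Bad (ENSMUSG00000024959, chromosome 19, 6941861 to 6951899, plus strand), whose protein is held back by phosphorylation downstream of growth factors, had 64.8, 72.8 and 67.6 CPM from 215, 224 and 188 counts. Bid (ENSMUSG00000004446, chromosome 6, 120891930 to 120916853, minus strand), which caspase-8 and granzyme B cleave into its active form, had 64.8, 54.6 and 71.5 CPM from 215, 168 and 199 counts. Pmaip1 (ENSMUSG00000024521), which encodes Noxa, the partner of Mcl1, had 24.4, 23.4 and 25.9 CPM from 81, 72 and 72 counts. The library ranges of Bad and Bid overlapped and those of Pmaip1 lay below both.

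Pmaip1 has a coding sequence of only 309 bases, and per coding kilobase it came level with Bad. The coding length of Bad, a union over 8 coding transcripts, was 933 bases, more than its longest consensus protein of 204 residues takes. The place of Bad beside Pmaip1 and below Bid on this scale therefore depends on the length chosen. Bid had 109 ± 14.6 CPM per coding kilobase, Pmaip1 79.5 ± 4.05 and Bad 73.3 ± 4.31 (SD, n = 3). The ranges of Pmaip1, at 75.7 to 83.7, and Bad, at 69.5 to 77.98, overlapped. Bid lay above both in every library, with a lowest value of 93.3. Per exon kilobase the order changed to Bad, Bid and Pmaip1, at 26.7, 17.9 and 8.99 CPM, and no ranges of these 3 overlapped. Exons of Bid overlap those of Bcl2l13 and exons of Bad those of Gpr137, each on the opposite strand, and strand use in counting is not given in the sources used here. Bcl2l13 had 73, 88 and 56 counts and Gpr137 55, 42 and 35, so the measured levels of Bid and Bad are uncertain by the part of their reads that these exons could share.

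Bcl2l11 (ENSMUSG00000027381, chromosome 2, 128126038 to 128162547, plus strand), which encodes Bim, had 22, 29 and 16 counts, or 6.63, 9.42 and 5.75 CPM, with overlapping Poisson intervals in all 3 libraries. Bbc3 (ENSMUSG00000002083, chromosome 7, 16308393 to 16318205, plus strand), which encodes Puma, a target of p53, had 2, 1 and 1 counts. Pooled over the libraries, the 4 counts of Bbc3 correspond to 0.436 CPM, with an exact Poisson interval of 0.119 to 1.12. Per coding kilobase Bcl2l11 stood 15.0-fold above Bbc3 on summed counts (5.59 to 56.6), and per exon kilobase 4.43-fold (1.65 to 16.7). The other 3 BH3-only genes stood above Bcl2l11 by 9.61-fold for Bid (7.45 to 12.6), 7.03-fold for Pmaip1 (5.33 to 9.38) and 6.49-fold for Bad (5.04 to 8.48). Per exon kilobase these ratios were 19.6-fold for Bid (15.2 to 25.7), 9.87-fold for Pmaip1 (7.48 to 13.2) and 29.4-fold for Bad (22.8 to 38.4), so that Bad had the smallest of the 3 on the coding scale and the largest on the exon scale.

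**Figure D2:**
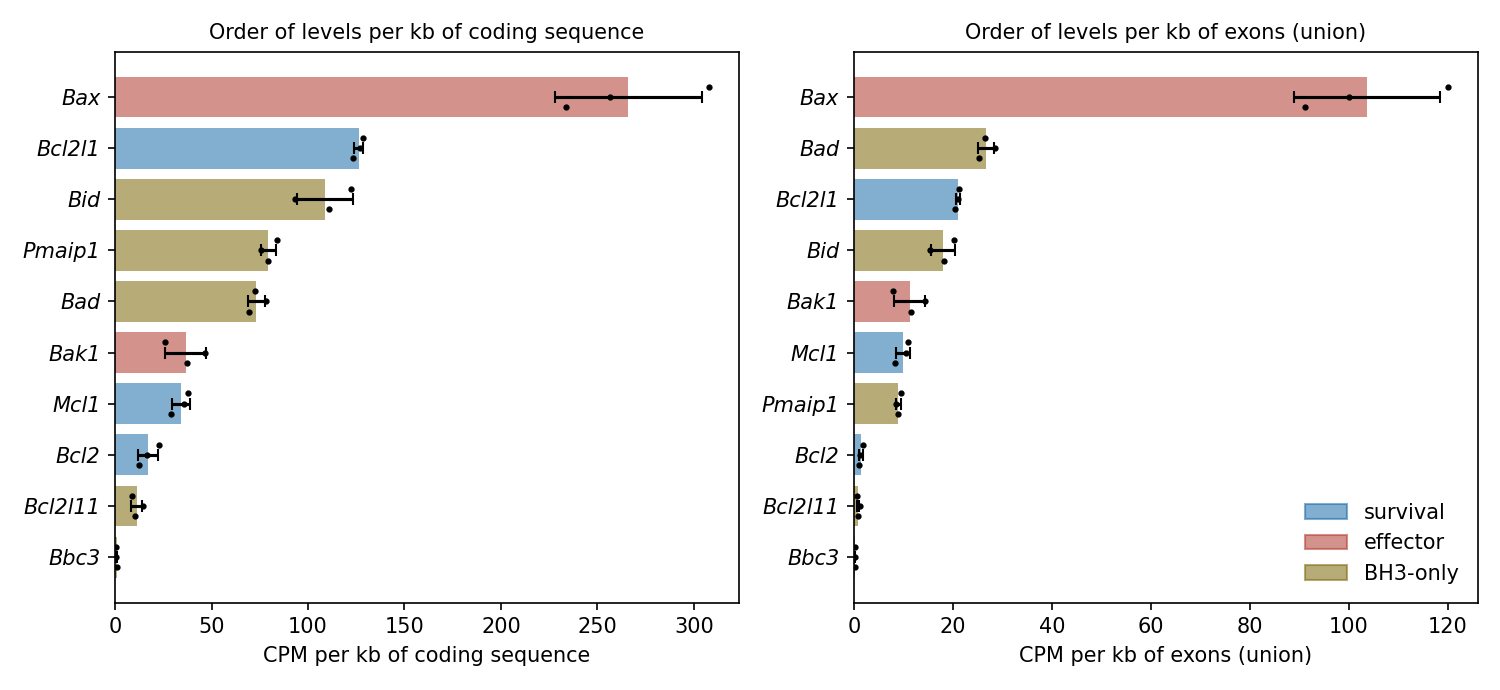
Mean level of each member as CPM per kilobase of coding sequence (left) and per kilobase of exons (right), with SD over 3 libraries as bars, single libraries as points and colours for the 3 roles. Bax leads and Bcl2, Bcl2l11 and Bbc3 are last on both scales, while Pmaip1 moves from rank 4 to rank 7.

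Ordered per coding kilobase, the members ran Bax, Bcl2l1, Bid, Pmaip1, Bad, Bak1, Mcl1, Bcl2, Bcl2l11, Bbc3. Of the 9 neighbouring pairs in this order, 3 had overlapping library values: Pmaip1 with Bad, Bak1 with Mcl1, and Bcl2 with Bcl2l11. Pmaip1 was below Bad in library 2, at 75.7 against 77.98 CPM per coding kilobase, and Bak1 was below Mcl1 in library 3, at 25.7 against 37.6, while in the other libraries the order held. Bcl2 was above its binding partner Bcl2l11 in all 3 libraries on this scale. The ratio of Bcl2 to Bcl2l11 was 1.21-fold, 1.13-fold and 2.55-fold in libraries 1, 2 and 3. On summed counts this gave 1.497-fold (1.10 to 2.06), from 113 against 67 counts. With the length of the longest transcript in place of coding length, Bcl2 was below Bcl2l11 in libraries 1 and 2, at 0.955 and 0.894 times its level, and the pooled interval of 0.865 to 1.62 included equality.

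Summed by role per coding kilobase, the 3 survival genes took 23.6% ± 0.467 of the members' level, both effectors 40.1% ± 1.49 and the 5 BH3-only genes 36.3% ± 1.70 (SD, n = 3). Within each role 1 or a few genes held most of the sum. Bcl2l1 made up 71.2% ± 3.49 of the survival sum, Bax 87.7% ± 4.04 of the effector sum, and Bid, Pmaip1 and Bad 39.7%, 29.1% and 26.9% of the BH3-only sum. Effector RNA was 1.65-fold, 1.69-fold and 1.77-fold above survival RNA in libraries 1, 2 and 3, and BH3-only RNA 1.64-fold, 1.46-fold and 1.53-fold above it. On the exon scale the survival share was lower, at 15.99% ± 0.406, and the effector share higher, at 56.8% ± 1.66, with effectors 3.43-fold to 3.75-fold above survival genes. These are sums of RNA per length over the members only, and no protein was measured. The mean coding sums were 178 CPM per kilobase for survival and 274 for BH3-only genes. Not counted were the survival genes Bcl2a1b and Bcl2a1d, at 51.7 and 59.5. Their levels are uncertain, since other genes share most of their coding 31-mers. The BH3-only genes Bmf and Bik, at 1.09 and 2.27, were also not counted. The order of survival and BH3-only sums on the coding scale can therefore change with the genes chosen.

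**Figure D3:**
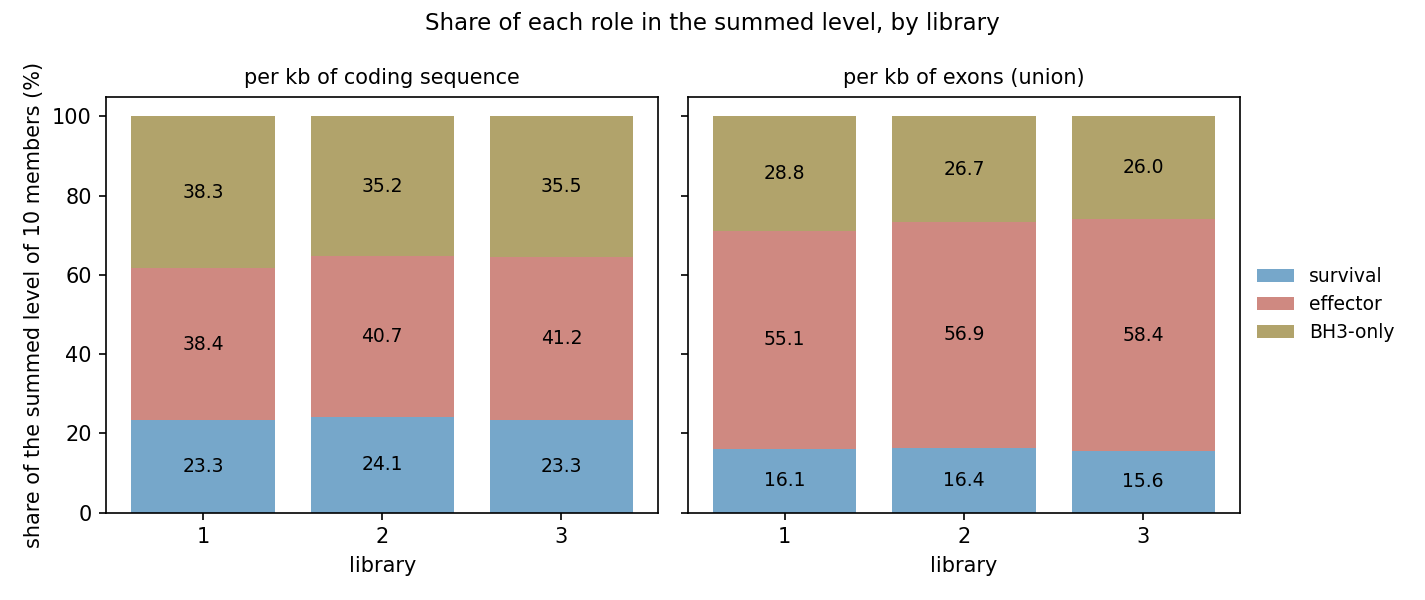
Share of the members' summed level held by survival, effector and BH3-only genes in each library, in percent, per kilobase of coding sequence (left) and of exons (right). The shares differ by at most a few points between libraries. Among the members chosen, the survival share is lowest of the 3 roles on both scales.

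Whether a member differed between the libraries was read from a chi-square test of each gene's counts against the library totals, run on the 10043 genes that reached a summed count of 30 and adjusted by Benjamini-Hochberg over all of them. Of the 9 members tested, Bax and Bak1 were called, against 22.7% of all genes tested, so the members' share was close to that background. Bax was 1.32-fold higher in library 3 than in library 1 (chi-square test, adjusted p = 0.000731). Bak1 was 1.81-fold higher in library 2 than in library 3 (adjusted p = 0.0128 by the chi-square test). Both calls rest on library 3: without it the adjusted p was 0.416 for Bax and 0.390 for Bak1, and without library 2 it was 0.123 for Bak1. The test allows for Poisson noise only. By edgeR's quasi-likelihood test of each library against the other 2, which also allows for spread between libraries, no member was called at an adjusted p of 0.05, and DESeq2 called none either. These fits set 1 library against 2 with 1 residual degree of freedom, and over all 10043 genes edgeR called 44 and DESeq2 2, so the lack of a call does not show that a member was alike in the libraries. At an unadjusted p under 0.05 edgeR named Bax and Bak1 in library 3 and no member in libraries 1 and 2, beside 823, 474 and 474 of all 10043 genes in libraries 3, 1 and 2.

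The other 7 members tested did not pass the chi-square test, with adjusted p from 0.105 for Bcl2 to 0.930 for Bcl2l1. Bcl2 had the widest range among all 9, at 1.83-fold between libraries 1 and 3, from 30 and 46 counts. The highest and lowest values of Bid lay 1.31-fold apart (adjusted p = 0.110 by the chi-square test). Bcl2l1, Pmaip1 and Bad spread less than Poisson noise gives on average, with a chi-square statistic per degree of freedom of 0.118, 0.186 and 0.749, where 1 is the mean under that noise. The plot of spread between libraries shows Bax and Bak1 on opposite sides of their means in library 3.

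**Figure D4:**
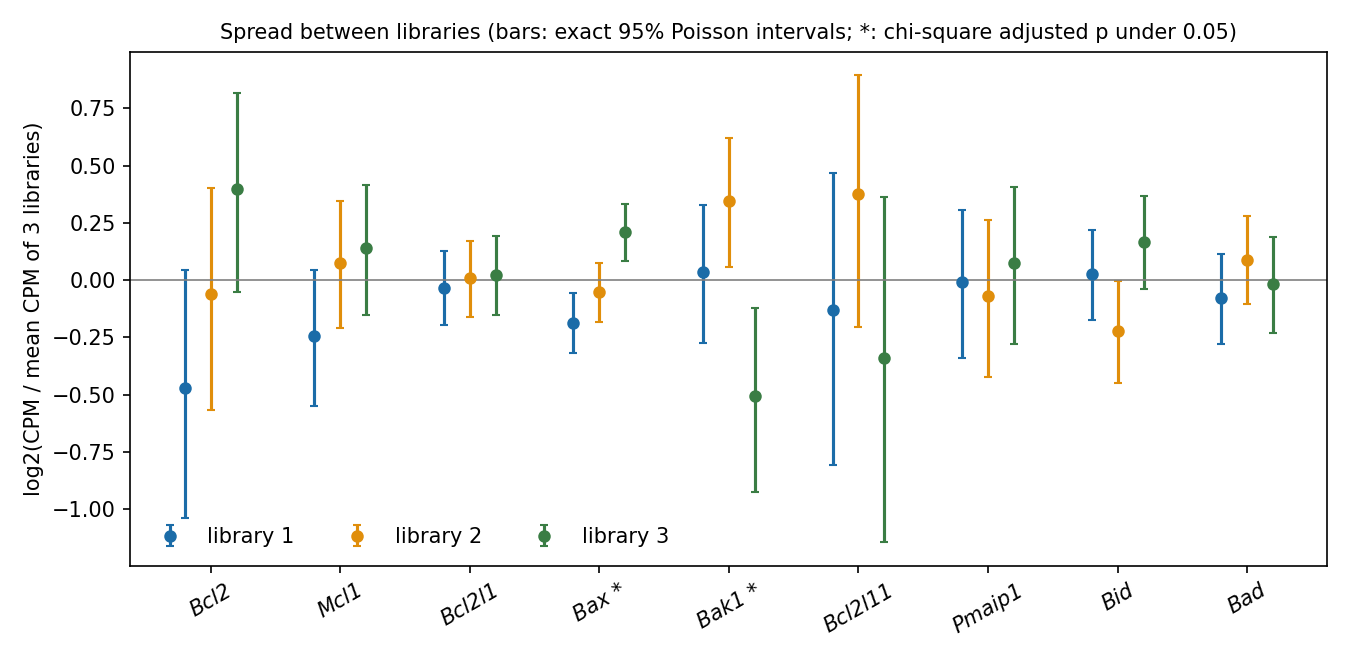
Log2 ratio of each library's CPM to the mean of the 3 libraries for the 9 members tested, with exact 95% Poisson intervals as bars and asterisks for a chi-square adjusted p under 0.05. In library 3 Bax is the highest and Bak1 the lowest of the 3 libraries.

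Library composition also varied, and its part in these differences was not tested. Defining genes of the labelled cell type were present throughout, with Foxp3 at 142 ± 6.17, Il2ra at 316 ± 23.3, Ctla4 at 316 ± 17.1, Ikzf2 at 416 ± 29.9, Cd3e at 403 ± 29.7 and Cd4 at 578 ± 42.5 CPM (SD, n = 3), while Cd8a had 0, 0 and 1 counts. Library totals were 2782259 to 3316275 counts. Of 10 B cell markers 9 were detected, led by Cd79b at 57.2 ± 14.7 CPM, and the list summed to 73.0, 177 and 203 CPM in libraries 1, 2 and 3. Ms4a1 among them had 8, 68 and 58 counts. The 5 erythroid markers summed to 6.03, 11.7 and 27.7 CPM, with 2 detected and Alas2 highest at 4.83 ± 0.586. Alas2 was flat, with 14, 15 and 15 counts, and the rise lay in globin genes. Hbb-bs had 1, 9 and 30 counts, Hbb-bt 0, 7 and 12, and Hba-a1 5, 5 and 19. The 8 monocyte and macrophage markers summed to 22.3, 85.1 and 38.1 CPM, with 3 detected and Cd68 highest at 18.2 ± 3.40. The 5 plasma cell markers, 4 of them detected, summed to 274, 277 and 242 CPM, of which Prdm1, a gene of effector Treg cells as well, held most, with 189.8 ± 44.3. This sum hid opposite orders. Prdm1, with 747, 628 and 390 counts, and Irf4, with 143, 143 and 83, were lowest in library 3. Jchain, with 6, 14 and 68 counts, Igha, with 12, 68 and 128, and Sdc1, with 1, 0 and 4, were highest there. Of the CD8 pair only Cd8b1 was detected, at 24.5 ± 6.51. Sums over the dendritic cell, neutrophil and NK cell lists stayed at or under 17.2 CPM in every library, with Clec9a, Camp and Klra4 at 0. The B cell and erythroid sums, like the levels of Bcl2, Mcl1, Bcl2l1 and Bax, were lowest in library 1 and highest in library 3. The Treg list, at 2910, 2924 and 3055 CPM, and the CD4 T cell list, at 2856, 3044 and 3161, had the same order. In bulk RNA, fewer cells of a type and less RNA per cell cannot be told apart.

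The members differed in base composition as well. The coding sequence was 53.5% G and C in Bid and 72.2% in Bbc3, with Mcl1 at 64.7%, Bad at 62.6% and Bcl2 at 61.0%. Over all genes with a count, the median level per coding kilobase was 14.6 CPM for 4043 genes at 50 to 55% G and C, 12.2 for 3712 genes at 55 to 60%, 5.14 for 1327 genes at 60 to 65% and 1.36 for 270 genes above that. Bad, Mcl1 and Bcl2, at 73.3, 34.2 and 17.2 CPM per coding kilobase, all stood above the median of their class, and Bbc3, at 0.741, below that of its own. Bcl2l11, with 55.6% G and C and 11.2 CPM per coding kilobase, also lay below its class median of 12.2. The remaining members lay above theirs. The part of base composition in these levels was not tested.

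Of 14 further Bcl2 family genes, 7 reached detection, a share close to the 47.3% of all 22457 genes, and the median was 2.06 CPM. The highest were Bcl2l12 at 43.8 ± 4.51 CPM, the mitophagy receptor gene Bnip3l at 43.3 ± 3.08 and Bcl2a1d at 30.7 ± 3.49 (SD, n = 3). Bcl2a1b and Bcl2a1d belong to a cluster of near-identical copies that encode the survival protein A1. Other genes hold 93.2% and 95.9% of their coding 31-mers and 82.8% of those of Bnip3l, so their levels are uncertain. The BH3-only genes Bmf and Bik missed detection, at 2, 2 and 4 and 6, 3 and 1 counts. Hrk and Bcl2l10 had no count in any library. Of the 6 tested between libraries, Bcl2l13 had the lowest adjusted p by the chi-square test, at 0.203.

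Downstream of pore formation, 17 of 18 genes reached detection, beside 47.3% of all 22457 genes, and the median was 111 CPM. Per coding kilobase Birc5, which encodes survivin and is also a gene of dividing cells, stood highest at 302 CPM, followed by the channel gene Vdac2, whose protein binds Bak, at 278. By CPM the highest were the inhibitor of apoptosis genes Birc2 at 309 ± 32.6 and Birc3 at 206 ± 9.16, with Vdac2 between them at 246 ± 9.93 (SD, n = 3). Apaf1, whose protein builds the apoptosome, had 63.8 ± 2.31 CPM and its partner Casp9 19.2 ± 1.68. Endog had 19.1 ± 1.30. Cycs, the gene of cytochrome c, had 2, 1 and 0 counts, but 100% of its coding 31-mers occur in other genes, so this level is uncertain. Birc2 was the only 1 of 17 tested genes called between libraries (chi-square test, adjusted p = 0.000442), beside 22.7% of all genes tested.

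**Figure D5:**
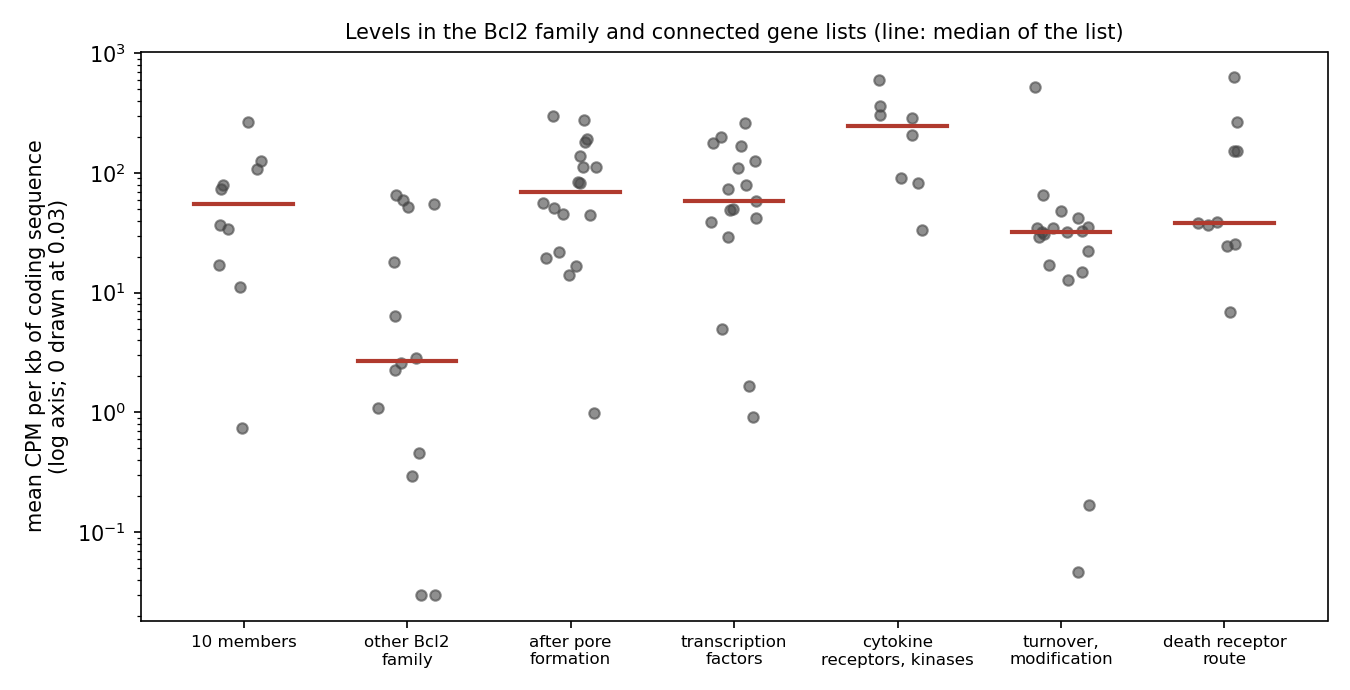
Mean CPM per kilobase of coding sequence, on a log axis, for the 10 members and for 6 lists of connected genes, 1 point a gene, with the median of each list as a red line. The other Bcl2 family genes have the lowest median, and the receptors and kinases of survival cytokines the highest.

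Genes that feed signals into the family were detected in nearly every case, beside 47.3% of all 22457 genes. Their calls between libraries stand beside the 22.7% of all genes tested. All 8 genes of the cytokine receptor list reached detection. Their median was 293 CPM, and they were led by the kinase gene Jak1 at 1055 ± 68.5, the IL-2 and IL-15 receptor chain Il2rb at 969.5 ± 33.9 and Il7r at 395 ± 32.9. Il15ra, at 28.8 ± 6.35, and Il4ra, at 220.4 ± 21.8, were the lowest of them by CPM. Of these 8, 5 were called between libraries by the chi-square test: Jak3, Il4ra, Il7r, Il2ra and Jak1. Their highest and lowest libraries lay 1.60-fold, 1.20-fold, 1.17-fold, 1.16-fold and 1.14-fold apart in that order. The test calls smaller differences at higher counts, and the median over all genes tested was 51.2 CPM. All 17 transcription factors with known action on members were detected, with Trp53 at 317 ± 14.5 CPM, Nr4a1 at 302 ± 38.4 and Rela at 300.0 ± 16.8. Foxo3, a known activator of Bcl2l11, had 8, 14 and 10 counts and Trp73 5, 5 and 7, while Foxo1 had 95.6 ± 4.84 CPM. Trp53, the regulator of Bbc3, Pmaip1 and Bax, thus stood at 260 CPM per coding kilobase beside 0.741, 79.5 and 266 for those 3 genes. Of 16 factors tested, 6 were called between libraries, among them Nr4a1, Stat3, Jun with 77, 68 and 118 counts, Stat5b with 331, 331 and 187 and Myc with 320, 312 and 352.

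Of 18 genes for turnover and modification of the members' proteins, 16 reached detection, beside 47.3% of all 22457 genes, and the median was 44.2 CPM. Per coding kilobase the median was 32.0 CPM, below the 54.9 of the members. Huwe1, a ubiquitin ligase of Mcl1, had 469 ± 13.8 CPM, Ywhae, a 14-3-3 protein of the kind that holds phosphorylated Bad, 454 ± 25.2, and Usp9x, which removes ubiquitin from Mcl1, 247 ± 44.4 (SD, n = 3). Usp9x was highest in library 1, with 981, 729 and 581 counts, and was called (chi-square test, adjusted p = 2.20e-09). Pim1, a kinase of Bad, with 198, 133 and 227 counts, and Akt2 were the other calls among 16 tested. Usp13 and Trim17 had 1 and 2 counts in all. In the route from death receptors to Bid, all 10 genes reached detection, and the median was 57.3 CPM. Per coding kilobase this median was 38.5 CPM, also below that of the members. Gzmb had 466 ± 16.8 CPM, Casp8 403 ± 24.2 and Fas 176 ± 16.3, and the lowest were Tnfrsf10b at 7.90 ± 2.84 and the adaptor gene Fadd at 15.2 ± 4.61. Cflar, which encodes the inhibitor of caspase-8, had 189, 210 and 125 counts and was called with Fas and Casp8 among the 10 tested. The calls in both lists, 3 of 16 and 3 of 10, stand beside 22.7% of all genes tested.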

How the data were processed

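Polyadenylated RNA of Treg cells was sequenced in 3 technical libraries of 1 biological replicate. The authors deposited 1 table per library of whole-number counts per gene, from an alignment to mm10 with the GENCODE M4 annotation per the notes the authors deposited with them. For aligner, counter, strandedness and duplicate removal, nothing is given in the sources used here. The libraries numbered 1, 2 and 3 held 3316275, 3079004 and 2782259 counts.

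Of 22457 identifiers, 22195 matched a symbol, and 21784 had a coding length in GENCODE M21 (GRCm38). CPM was computed on the library total. Poisson and binomial intervals are exact at 95% and cover counting error only. The chi-square test with 2 degrees of freedom was run over all genes with 30 or more summed counts, adjusted by Benjamini-Hochberg with a threshold of 0.05. edgeR 4.0.16, with TMM scaling, and DESeq2 1.42.0 served as alternatives, under R 4.3.3. The chi-square and edgeR tests were checked on counts simulated with Poisson noise only. That check does not cover spread between libraries beyond this noise. Python 3.11.15 with scipy 1.17.1 was used.

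The members and gene lists were chosen with earlier results of these data known. Named genes are the 10 members, up to 3 of the highest and 2 of the lowest by CPM in each list, and up to 5 that differed between libraries by the chi-square test. Markers of other cells are given by the highest of each larger list. The overlapping genes, the markers at 0, Bcl2a1b, Bmf, Bik, Bcl2l13, Apaf1, Casp9, Birc5 and Foxo1 were added after their values were seen. So were the markers Irf4, Jchain, Igha, Sdc1, Hba-a1, Hbb-bs and Hbb-bt. No genes of like pattern are named, since 3 libraries of 1 sample are too few.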

Additional observations from a re-analysis of the deposited data

How the results depend on the processing

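Settings changed 1 at a time were other scalings, filters, tests and lengths, and each library left out. Of the 10 members, 9 stayed detected under every setting tried. The calls for Bax and Bak1 held under every other scaling and minimum count. By edgeR, 0 members and 44 genes differed, and by DESeq2, 0 members and 2 genes, against 2 members and 2277 genes by the chi-square test; at an unadjusted p under 0.05 edgeR named 0, 0 and 2 members and 474, 474 and 823 of 10043 genes in libraries 1, 2 and 3. Leaving out 1 library gave 0 to 2 members and 904 to 1466 genes. With fewer libraries, fewer counts enter each test.

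The log2 ratio of Mcl1 to Bcl2 was 1.02 ± 0.26 (SD, n = 3) per coding length, 2.89 per exon length, 2.54 per longest transcript and 1.47 with no length. That of Bax to Bak1 was 2.90 ± 0.60, and 3.74 per longest transcript. BH3-only over survival genes moved from 0.62 to 0.76, 0.78 and 0.21, and effector over survival genes from 0.77 to 1.83, 1.70 and 0.41, in the order exon, longest transcript and no length. No mean log2 ratio over the libraries changed sign. The log2 ratio of Bcl2l11 to Bcl2 was -0.60 ± 0.65 and ran from -0.81 to -0.23 with 1 library left out, -0.23 being without library 3. Per longest transcript its mean was -0.26, but Bcl2l11 stood above Bcl2 in libraries 1 and 2 and below it in library 3 only. No member shared over 50% of its coding 31-mers, so that exclusion removed none. Of the levels, Bcl2l1 alone moved by more than its SD, with totals over genes under 1.8 counts per coding base. All 10 levels rose with these totals, Bcl2l1 from 96.2 to 99.98 CPM and Bax from 163.4 to 169.8. Bcl2l1 passed its bound because its SD was small, at 1.91 CPM, beside 23.3 for Bax.

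At these depths a gene with 4 counts in all, such as Bbc3, cannot be compared between libraries. No paired analysis was possible because there is 1 group.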
